A study of Setaria viridis with 23 samples.

Results

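The net change of the transcriptome from 15 to 18 days after sowing (DAS) was measured in 8 of the 23 RNA-seq libraries of the series, 4 at 15 DAS and 4 at 18 DAS. The 4 libraries of 16 DAS were used to place the change in time. Libraries were chosen by their stage labels alone, and every gene entered the comparison. Of 35214 genes in the table, 21180 passed the filter on low counts and were tested. The plants were of the S. viridis (green foxtail) reference accession A10.1, grown under controlled conditions, and the labels name no treatment, so that the groups differ by age. For each library 10 to 30 primordia, dissected by hand in the morning, were combined, so that the errors below measure the spread of such pools rather than of single plants. All 12 libraries were sequenced single-end, whereas those of 10 to 14 DAS were paired-end, so that the compared stages share a sequencing mode. The paired-end libraries entered through the filter on low counts, the scaling and the estimate of the spread, which were made over all 23 libraries.

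In grasses, an inflorescence meristem (IM) gives rise to branch meristems (BMs), which later become spikelet meristems (SMs) and these in turn floral meristems (FMs). In Setaria, some branches end as bristles, sterile structures that stand beside the spikelets. By the study's microscopy, 15 DAS is the stage at which the IM stops making BMs and the first SMs appear at the tip. At 16 DAS glumes and FMs are initiated, and at 18 DAS lemma, palea and anther primordia are present. MADS-box transcription factors (TFs) carry out much of this sequence. In the rice and Arabidopsis models, SVP-like and SOC1-like members act around the floral transition, A, B, C and E class members specify floral organs, and AGL6-like members act with the E class.

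Estimated counts summed to between 7630744 and 15543160 per library at 15 DAS, 12377240 and 15376836 at 16 DAS, and 13269772 and 16556504 at 18 DAS. Replicates 1 and 2 of 15 DAS were the shallowest, with 8964218 and 7630744 counts. They also stood apart in profile: replicate 2 had a mean Spearman correlation of 0.981 with the 16 DAS libraries and 0.971 with the other 15 DAS libraries, and replicate 1 correlated about equally with both (0.986 and 0.985). On an axis drawn through the genes that changed over 2-fold, with the 15 DAS mean at 0 and the 18 DAS mean at 1, replicates 1 to 4 of 15 DAS lay at 0.0438, 0.334, -0.146 and -0.232. The 16 DAS libraries lay at 0.243 to 0.481 and those of 18 DAS at 0.885 to 1.07. Replicate 2 of 15 DAS thus sat among the 16 DAS libraries, and the counts that lead the comparisons are also given without replicates 1 and 2 of 15 DAS. The meristem marker SvKn1 was present in all 12 libraries (245 to 464 CPM, counts scaled to a common library size by TMM). A set of 11 photosynthesis genes, taken as markers of green tissue, had a summed level of 97.9 to 155 CPM at 15 DAS and of 97.4 to 137 CPM at 18 DAS, which overlapped, and of 65.5 to 80.2 CPM at 16 DAS. Their part in the results was not tested. RBCS was at 0 to 2.34 CPM in these 12 libraries.

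Between 15 and 18 DAS, 9040 of the 21180 tested genes (42.7%) passed an adjusted p of 0.05 (edgeR, quasi-likelihood F-test, p-values adjusted by the Benjamini-Hochberg method), and such genes are said to be called below. Of these, 4683 (22.1% of those tested) were higher and 4357 (20.6%) lower at 18 DAS. With scaling by library size alone the split was 3599 higher and 5240 lower. It was 3966 and 4295 in a fit of the 12 single-end libraries, and 3111 and 3685 in a fit of the 8 libraries of 15 and 18 DAS. Without a filter on low counts it was 4102 and 4555. More genes stayed higher than lower with DESeq2 size factors (4640 and 4373) and whenever a single replicate was left out. The balance of the directions thus depends on the scaling, the filter and the libraries in the fit. The median log2 fold change over all tested genes was 0.03, and -0.05 with library-size scaling. Over 2-fold changes were called for 1121 higher genes (5.29%) and 1429 lower genes (6.75%). The 15 and 18 DAS libraries did not overlap for 6937 tested genes (32.8%). Among the genes called over 2-fold, this held for 952 of the 1121 higher genes and for 963 of the 1429 lower genes. When replicates 1 and 2 of 15 DAS were left out, 5070 genes were called higher and 4693 lower, 1528 and 1846 of them over 2-fold. Because the samples are whole primordia, a larger share of cells that express a gene and more RNA per cell cannot be told apart in any of these changes.

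The 16 DAS mean was used to ask whether a net change was gradual or fell mainly into the first day or the last days. Its position was expressed as the log2 change from 15 to 16 DAS divided by that from 15 to 18 DAS, so that 0 is the level of 15 DAS, 1 that of 18 DAS and 0.5 an equal change in both steps. The test asked whether 16 DAS differed from the midpoint of 15 and 18 DAS, a contrast that is independent of the net change when the stages have equal replicate numbers and equal spread. The replicate numbers were equal, but the spread was not. Over all tested genes the median coefficient of variation (standard deviation over mean) was 17.2% at 15 DAS and 12.1% at 18 DAS. A gene is said to lie behind midway when it passed this test (adjusted p under 0.05) with 16 DAS on the side of 15 DAS. It is said to lie ahead of midway when it passed with 16 DAS on the side of 18 DAS. Both classes can hold genes whose 16 DAS mean lay outside the range of the other stages.

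Genes that rose over 2-fold did so mainly after 16 DAS, whereas the median gene that fell over 2-fold declined by similar amounts in both steps. Among the 4683 genes called higher, 1300 (27.8%) lay behind midway and 438 (9.35%) ahead of it. Among the 1121 that rose over 2-fold the contrast was larger, with 473 (42.2%) behind and 11 (0.981%) ahead. The median position of these 1121 genes was 0.10, with quartiles of -0.12 and 0.33, and their median log2 change was 0.16 from 15 to 16 DAS against 1.35 from 16 to 18 DAS. Among the 4357 genes called lower, 499 (11.5%) lay behind midway and 434 (9.96%) ahead. Of the 1429 that fell over 2-fold, 95 (6.65%) lay behind and 92 (6.44%) ahead, around a median position of 0.54. Their median log2 change was -0.75 in the first step and -0.65 in the second. The remaining 637 rising and 1242 falling genes over 2-fold could not be told apart from midway, which includes genes whose spread was too wide to tell. The position was below 0 for 1376 and above 1 for 584 of the 4683 genes called higher, and for 553 and 597 of the 4357 called lower. For the rises over 2-fold these counts were 416 and 10, and for the falls 65 and 134.

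The order of the strong rises held without replicates 1 and 2 of 15 DAS, but that of all genes called higher did not. After their omission, 397 genes that rose over 2-fold lay behind midway and 130 ahead. The order held in all 21 alternative settings, with 231 to 572 genes behind and 4 to 130 ahead. Over all genes called higher, however, the same omission gave 972 behind and 1194 ahead, which turned the order. For genes that fell over 2-fold it gave 82 behind and 421 ahead. With only 2 libraries left at 15 DAS, the midpoint contrast is no longer independent of the net change, and a net change that is overstated also pushes a gene towards the ahead class. The wider spread at 15 DAS acts in the same direction in the main fit. The opposite direction is taken by replicate 2 of 15 DAS, which lay at 0.334 on the axis, among the 16 DAS libraries. Its presence in the main fit moves the 15 DAS mean towards 16 DAS, and so moves genes towards the behind class. Without replicate 2 of 15 DAS alone, 96 genes that fell over 2-fold lay behind midway and 268 ahead, and 449 that rose lay behind and 26 ahead. How far these points moved the counts was not tested. Measured against days rather than against the midpoint, where an even pace puts 16 DAS at a position of 0.333, 231 genes that rose over 2-fold lay behind and 23 ahead, and 41 of those that fell lay behind and 263 ahead.

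**Figure D1:**
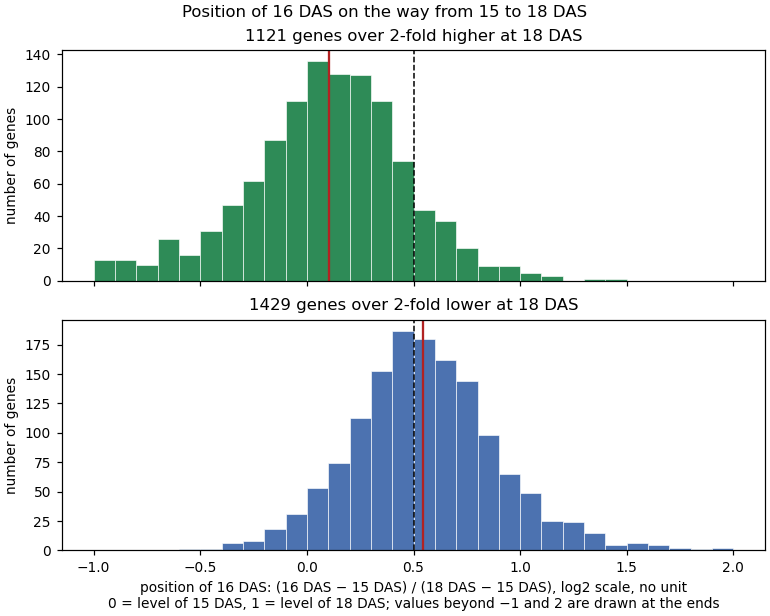
Histograms of the position of 16 DAS (x axis, no unit, computed on the log2 scale) for the genes that rose (upper panel) or fell (lower panel) over 2-fold between 15 and 18 DAS, with the number of genes on the y axis. The dashed line marks 0.5, the midpoint, and the solid line the median, 0.10 for the 1121 genes that rose and 0.54 for the 1429 that fell.

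The B class, C class and AGL6-like MADS-box genes and 3 of 5 E class genes rose, mainly after 16 DAS, whereas of 4 A class (FUL-like) genes none was higher and 2 were lower. Of 31 MADS-box genes, 29 were tested, and 11 were called higher and 11 lower, a called share of 75.9% against 42.7% of all genes, with a median log2 fold change of 0.03. Of the 11 that were higher, 10 lay behind midway (against 27.8% of all genes called higher), and none ahead. All B class (3 of 3), C class (2 of 2) and AGL6-like genes (2 of 2) were higher, as were 3 of 5 E class genes. Leaving out replicates 1 and 2 of 15 DAS gave 10 higher and 11 lower MADS-box genes. The study assigned several of these genes to their groups from the same samples, so their direction is not independent evidence for them.

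The B class specifies lodicules and stamens. SvSi1 (Sevir.4G289400), ortholog of maize silky1, had 0.106, 0.122, 0.299 and 1.37 CPM at 15 DAS (replicates 1 to 4), 0.0646, 0.243, 0.293 and 0.213 CPM at 16 DAS and 23.5, 27.7, 12.0 and 27.0 CPM at 18 DAS. It was close to absent until 16 DAS and present in every library of 18 DAS, with a log2 fold change of 5.37 ± 0.45 (SE, adjusted p = 1.25e-08, edgeR). SvMADS4 (Sevir.3G242100), homolog of rice OsMADS4, had 2.12, 2.08, 1.67 and 1.99 CPM at 15 DAS, 2.33, 1.86, 2.20 and 1.99 CPM at 16 DAS and 15.2, 17.8, 9.73 and 18.3 CPM at 18 DAS, and its 15 and 16 DAS libraries overlapped. The third member, the OsMADS2 homolog (Sevir.5G410100), rose less, from 7.70 to 9.86 CPM at 15 DAS to 14.3 to 18.2 CPM at 18 DAS (log2 fold change 0.92 ± 0.15), and was likewise behind midway.

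The C class, which specifies stamens and carpels and ends the activity of the FM, had a pair of members. The OsMADS3 homolog (Sevir.5G141300) had 0.424, 0, 0.418 and 0.618 CPM at 15 DAS, then 0.324 to 0.775 CPM at 16 DAS and 8.23, 7.35, 3.70 and 5.11 CPM at 18 DAS. The OsMADS58 homolog (Sevir.3G074600) had 0.893 to 1.27 CPM at 15 DAS, then 0.452 to 0.880 CPM at 16 DAS and 7.15, 7.95, 3.47 and 7.17 CPM at 18 DAS. Both rose between 15 and 18 DAS, by 3.91 ± 0.48 and 2.63 ± 0.32 on the log2 scale.

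The E class (SEPALLATA-like) provides cofactors for the other floral classes. SvLhs1 (Sevir.9G494300), homolog of rice OsMADS1 and linked to lemma and palea identity there, had 12.5, 12.8, 18.9 and 14.2 CPM at 15 DAS, 10.9, 13.9, 13.6 and 16.8 CPM at 16 DAS and 123, 118, 94.2 and 148 CPM at 18 DAS. The level was flat over the first step (-0.10 on the log2 scale) and rose by 3.13 over the second. The OsMADS8 homolog (Sevir.2G277000) went from 2.73 ± 0.349 CPM (SD, n = 4) through 2.08 ± 0.286 to 35.1 ± 8.11 CPM, and the OsMADS7 homolog (Sevir.6G230500) from 1.90 ± 0.434 through 0.841 ± 0.159 to 20.2 ± 6.56 CPM. The midpoint test gave them an adjusted p of 5.71e-07 and 9.29e-06 (edgeR), and 16 DAS lay below 15 DAS in the mean of both. The other E class members did not pass the test. The OsMADS34 homolog had 214 to 298 CPM at 15 DAS and 198 to 251 CPM at 18 DAS, and the OsMADS5 homolog 115 to 162 CPM and 126 to 153 CPM.

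Both AGL6-like genes rose late. SvBde1 (Sevir.1G278500), ortholog of maize bearded ear 1, which acts in floral meristem fate, had 6.25, 4.64, 6.45 and 7.35 CPM at 15 DAS, 7.37, 7.68, 8.87 and 9.52 CPM at 16 DAS and 37.5, 44.0, 34.4 and 45.9 CPM at 18 DAS. The OsMADS17 homolog (Sevir.7G221900) had 0.530 to 0.962 CPM, 0.728 to 1.35 CPM and 19.7, 22.9, 15.1 and 24.9 CPM, a log2 fold change of 4.84 ± 0.26. At 18 DAS, replicate 3 was the lowest of the 4 libraries for all 9 of these genes that rose over 2-fold, and it was the 18 DAS library placed nearest to 16 DAS on the axis above (0.885). It nevertheless lay above all 15 DAS libraries for each of them. Without replicates 1 and 2 of 15 DAS the log2 fold changes of SvSi1, SvMADS4, SvLhs1 and SvBde1 were 4.79, 3.06, 2.86 and 2.55, and each of these genes stayed behind midway.

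**Figure D2:**
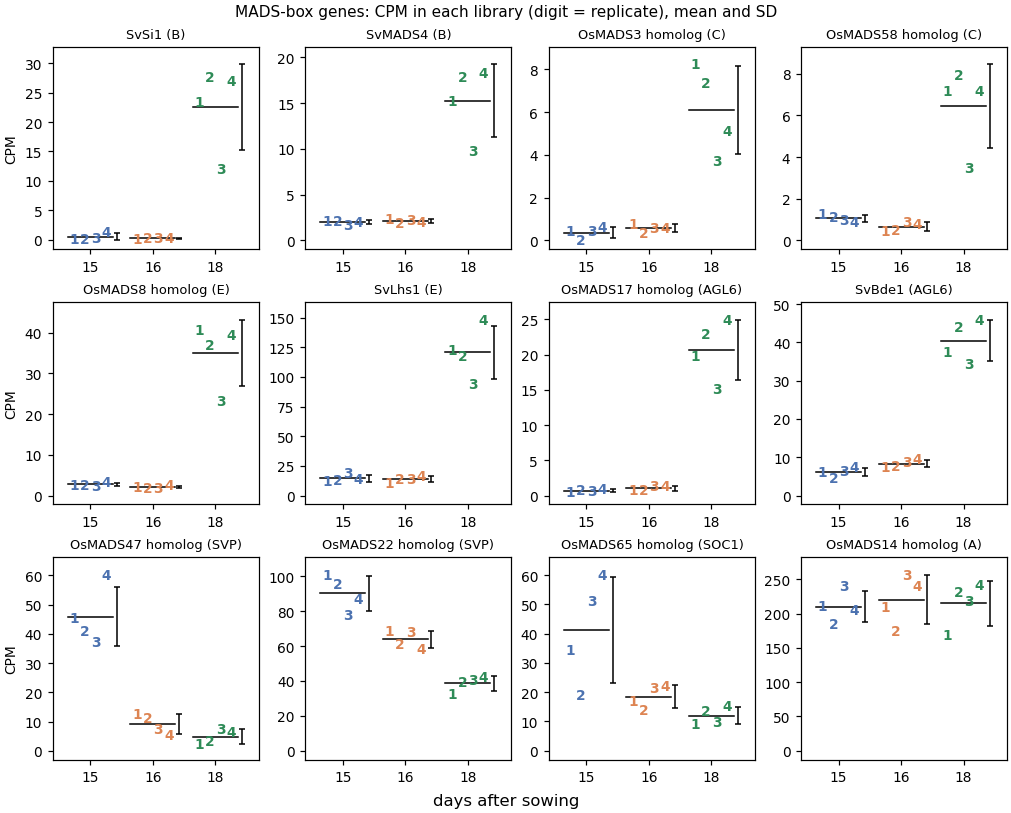
CPM of 12 MADS-box genes (y axes, each including 0) in the libraries of 15, 16 and 18 DAS (x axis), where each digit is the replicate of that number, the horizontal bar the mean and the vertical bar the SD (n = 4). The 8 floral organ genes of the upper rows are low at 15 and 16 DAS and higher in all 4 libraries of 18 DAS. In the bottom row the SVP-like genes and the OsMADS65 homolog, listed here as SOC1-like, descend. The libraries of the OsMADS14 homolog overlap at all stages.

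MADS-box genes of the SVP-like group, and most of those listed here as SOC1-like, were instead lower at 18 DAS. All 3 SVP-like genes, which act in meristems before flowers form, fell over 2-fold. The OsMADS47 homolog (Sevir.9G518400) had 45.6, 40.9, 37.1 and 60.2 CPM at 15 DAS, 12.5, 11.3, 7.55 and 5.26 CPM at 16 DAS and 2.15, 3.31, 7.32 and 6.46 CPM at 18 DAS. Its libraries of 15 DAS lay above all others, and most of its change of -3.27 ± 0.27 on the log2 scale was complete at 16 DAS, so that it lay ahead of midway (adjusted p = 0.0308, edgeR). This position held in 14 of 20 alternative settings. The OsMADS22 homolog fell from 77.9 to 101 CPM through 58.2 to 68.4 CPM to 32.3 to 42.4 CPM, and the OsMADS55 homolog from 61.9 to 89.7 CPM through 37.3 to 50.0 CPM to 24.7 to 35.4 CPM. In both, the 3 stages followed each other without overlap, and neither could be told apart from midway.

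Of 5 genes listed here as SOC1-like, 4 fell over 2-fold and 1 rose. The list took in homologs of OsMADS65 and OsMADS37, and whether these belong to the SOC1 clade was not tested. The OsMADS65 homolog (Sevir.5G438700) fell by 1.80 ± 0.24 on the log2 scale, from 34.4, 19.2, 51.3 and 60.0 CPM at 15 DAS to 9.30 to 15.4 CPM at 18 DAS. Its 15 DAS libraries varied over a wide range, with replicate 2 the lowest, and that replicate lay within the range of 16 DAS (13.8 to 21.9 CPM). Replicate 2 was also the lowest 15 DAS library of the OsMADS56 homolog and of both OsMADS37 homologs, which fell with log2 fold changes of -1.11, -1.06 and -1.20. The OsMADS50 homolog rose slightly, by 0.45 ± 0.14 on the log2 scale, and lost its call without replicates 1 and 2 of 15 DAS (a change of 0.38 on that scale, edgeR adjusted p = 0.0672). Of the FUL-like (A class) genes, which mark the transition to flowering in grasses, the homologs of OsMADS14 and OsMADS15 did not pass the test (log2 fold changes of 0.03 ± 0.13 and -0.24 ± 0.14), that of OsMADS18 fell by 0.50, and that of OsMADS20 fell from 1.58 to 2.86 CPM to 0.120 to 0.426 CPM (-3.19 ± 0.45 on the log2 scale).

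Of 43 genes whose homologs control inflorescence development in maize or rice, all were tested, and 10 were higher and 9 lower at 18 DAS, a called share of 44.2% that is near the 42.7% of all genes. The study identified these genes by homology and placed some of them in expression groups of the same samples. Of 8 floral organ genes, 7 were higher and none lower, of 18 genes of the axis and branch phase, 1 was higher and 6 lower, and of 17 genes of spikelet meristem identity and determinacy, 2 were higher and 3 lower. The median log2 fold changes were 2.25, -0.33 and -0.22 in these groups, against 0.03 over all tested genes. Without replicates 1 and 2 of 15 DAS, 13 of the 43 were higher and 10 lower.

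Of the 18 genes of the branch phase 6 fell, 2 of them behind midway, and 11 did not pass the test. SvTaw1 (Sevir.9G221800), ortholog of rice TAWAWA1, which delays the change to SM identity, had 13.8, 12.8, 7.58 and 9.55 CPM at 15 DAS, 12.8, 12.8, 13.6 and 8.17 CPM at 16 DAS and 2.0, 2.41, 5.66 and 4.12 CPM at 18 DAS. The levels of 15 and 16 DAS overlapped, and those of 18 DAS were below both (log2 fold change -1.61 ± 0.30). The related SvTaw1-like 2 (Sevir.1G244200) instead descended in steps, from 9.02 to 11.1 CPM through 4.83 to 6.38 CPM to 0.858 to 2.63 CPM.

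SvTfl1-like (Sevir.1G183200), of the TERMINAL FLOWER 1 family that keeps meristems indeterminate, fell from 1.65 to 2.76 CPM through 0.497 to 1.87 CPM to 0.181 to 0.426 CPM (log2 fold change -2.78 ± 0.45). SvTfl1 itself did not pass the test and was at 0.318 to 1.46 CPM and 0 to 0.980 CPM. SvLfy (Sevir.7G234000), ortholog of LEAFY, fell by 1.00 ± 0.16 on the log2 scale, with 66.6 to 103 CPM at 15 DAS and 34.9 to 52.0 CPM at 18 DAS. SvTfl1-like and SvLfy could not be told apart from midway. SvDfl1 (Sevir.2G302300), homolog of a maize bZIP factor of flowering time, fell late, from 61.8, 38.6, 63.6 and 64.8 CPM at 15 DAS and 27.2 to 64.5 CPM at 16 DAS to 9.87, 15.8, 21.0 and 19.2 CPM at 18 DAS. SvUb3, an SBP factor that the study counts as a positive regulator of lateral meristems, fell by 0.50 with overlapping libraries. Its log2 fold change was -0.23 (adjusted p = 0.234, edgeR) without replicates 1 and 2 of 15 DAS, so that the call was lost. The exception was SvLg2 (Sevir.5G394700), ortholog of maize liguleless 2, which rose by 0.96 ± 0.18, from 6.32 to 10.2 CPM to 11.5 to 19.8 CPM.

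SvRa3 (Sevir.2G407500), ortholog of maize ramosa 3, a trehalose phosphate phosphatase that limits branching, fell late. It had 170.0, 153, 174 and 117 CPM at 15 DAS, 192, 149, 214 and 191 CPM at 16 DAS and 18.2, 24.0, 46.0 and 34.5 CPM at 18 DAS. Thus it stood as high at 16 DAS as at 15 DAS, and then dropped by 2.61 on the log2 scale, for a net change of -2.33 ± 0.22 (adjusted p = 8.77e-08, edgeR) and an adjusted midpoint p of 2.13e-05. SvSyd, a chromatin remodeling ATPase, also fell late and less (-0.45 ± 0.13). SvFea4, a bZIP factor that limits meristem size in maize, fell by 0.59 with overlapping libraries and kept its call in 13 of 21 alternative settings, but not without replicates 1 and 2 of 15 DAS (-0.11, adjusted p = 0.721, edgeR). The maintenance genes SvKn1 and SvTd1 and the determinacy gene SvRa1 did not pass the test, with log2 fold changes of -0.33 ± 0.15, 0.05 ± 0.17 and -0.50 ± 0.26. SvFon2, at 0.0754 to 0.852 CPM, did not pass it either.

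Only 1 of the 43 genes was ahead of midway. SvCuc3 (Sevir.6G213600), of the NAC family genes that set organ boundaries, had 41.5, 45.7, 21.4 and 21.8 CPM at 15 DAS, 73.1, 71.6, 56.4 and 48.7 CPM at 16 DAS and 49.5, 48.1, 68.3 and 62.1 CPM at 18 DAS. All libraries of 16 DAS were above those of 15 DAS, and they overlapped those of 18 DAS. It was ahead of midway in 11 of 20 alternative settings only, and replicates 3 and 4 of 15 DAS were about as low as each other while 1 and 2 were near the 18 DAS level. Its net log2 fold change was 0.83 ± 0.23, and 1.40 without replicates 1 and 2.

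Of the floral organ genes outside the MADS-box family, SvSl1 (Sevir.5G086100), ortholog of the rice stamen regulator STAMENLESS 1, rose late, from 1.65 to 2.56 CPM and 1.70 to 2.27 CPM to 7.30, 6.02, 7.99 and 9.15 CPM. SvTga1 (Sevir.6G230400), ortholog of the glume regulator teosinte glume architecture 1, had 26.6 to 28.9 CPM, 37.2 to 41.8 CPM and 39.8 to 55.2 CPM at the 3 stages. Its 15 DAS libraries lay below all others and its rise of 0.83 ± 0.13 was spread over both steps. In the spikelet group, SvTob1, homolog of a YABBY factor of spikelet meristems in rice, rose by 1.38 ± 0.33. The floral gene SvTs2, of the maize sex determination pathway, rose by 0.60 ± 0.20 and kept its call in 16 of 21 alternative settings. SvAn1, a gibberellin synthesis gene, did not pass the test (-0.31 ± 0.16).

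**Figure D3:**
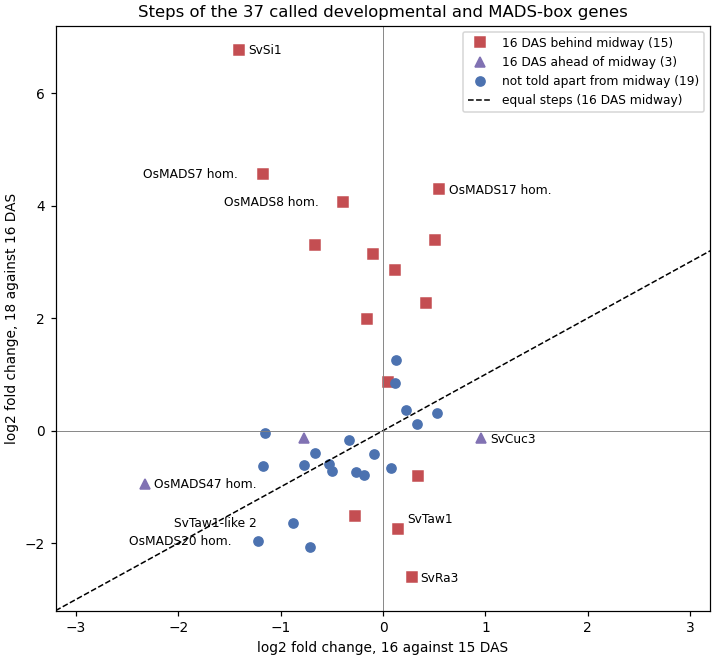
Log2 fold change from 15 to 16 DAS (x axis) against that from 16 to 18 DAS (y axis) for the 37 developmental and MADS-box genes called between 15 and 18 DAS, where the dashed line marks equal steps. Genes behind midway (15, squares) spread along the vertical, with SvSi1 at the top and SvRa3 at the bottom, and the 3 genes ahead of midway (triangles) lie near the horizontal.

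Genes of the TCP family, whose members regulate organ growth and axillary meristems, rose moderately. Of 18 tested TCP genes, 11 were higher and none lower at 18 DAS (61.1% called, against 22.1% of all genes higher), with a median log2 fold change of 0.62. Only 2 of the 11 lay behind midway and none ahead. Over the alternative settings 8 to 11 genes were higher, and 11 were without replicates 1 and 2 of 15 DAS. The study listed 8 further genes with this family that belong to other protein families, and these were kept apart here. Of the 8, 1 was higher and 3 were lower (50% called against 42.7% of all genes, median log2 fold change 0.12). A TCP5-like gene (Sevir.3G186300) had 76.7, 94.4, 55.4 and 46.0 CPM at 15 DAS, 124, 106, 96.6 and 96.7 CPM at 16 DAS and 155, 228, 192 and 236 CPM at 18 DAS, with no overlap between consecutive stages. A TCP7-like gene (Sevir.1G250500) rose from 4.53 to 10.9 CPM through 10.9 to 13.7 CPM to 20.3 to 21.2 CPM, and a TCP14-like gene (Sevir.4G097000) from 8.18 to 13.9 CPM to 23.5 to 34.5 CPM. Their log2 fold changes were 1.58 ± 0.21, 1.44 ± 0.17 and 1.40 ± 0.17. SvTb1 and SvBad1, the family members known from branch suppression and branch angle in maize, did not pass the test (0.06 ± 0.19 and 0.26 ± 0.20).

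Of 14 SBP genes, 6 were higher and 1, SvUb3, was lower (50.0% called against 42.7% of all genes, median log2 fold change -0.01). When replicates 1 and 2 of 15 DAS were omitted, 6 were higher and none lower. A homolog of Arabidopsis SPL8 (Sevir.4G200400), a gene needed there for pollen sac formation, had 4.13, 5.61, 2.21 and 1.79 CPM at 15 DAS, 5.56, 5.91, 3.81 and 3.55 CPM at 16 DAS and 30.5, 34.5, 18.4 and 32.7 CPM at 18 DAS. It rose by 3.17 ± 0.31 on the log2 scale and lay behind midway. Another SPL8-like gene (Sevir.1G065500) had 9.41 to 17.9 CPM, 15.5 to 20.4 CPM and 26.3 to 46.8 CPM at the 3 stages and could not be told apart from midway. Sevir.2G336300, which is closest to rice SPL13, rose by 1.06 ± 0.23.

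The other TF families changed in both directions. In the bHLH family, 34 of 88 tested genes were higher and 12 lower (52.3% called, median log2 fold change 0.37). A bHLH94-like gene (Sevir.6G193000) rose from 4.74 to 22.7 CPM to 50.6 to 66.8 CPM. Of these families, bZIP genes were called most often, with 15 of 53 higher and 22 lower (69.8%, median -0.25), and 15 of those that were lower fell over 2-fold. Among AP2/ERF and B3 genes, listed together by the study, 21 of 89 were higher and 19 lower, and among C2H2 genes 19 of 65 were higher and 12 lower (44.9% and 47.7% called). For NAC genes the counts were 12 of 49 higher and 10 lower, and for LOB genes 3 of 11 higher and 2 lower (44.9% and 45.5% called). Of all tested genes 42.7% were called, 22.1% higher and 20.6% lower. The medians of the last 4 families were 0.09, 0.13, 0.03 and -0.00, close to that of all genes. After omission of replicates 1 and 2 of 15 DAS, 36 bHLH genes were higher and 12 lower, and of the bZIP genes 10 were higher and 23 lower. The same omission gave 22 higher and 24 lower AP2/ERF and B3 genes, 20 and 13 C2H2 genes, 12 and 11 NAC genes, and 3 and 3 LOB genes.

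**Figure D4:**
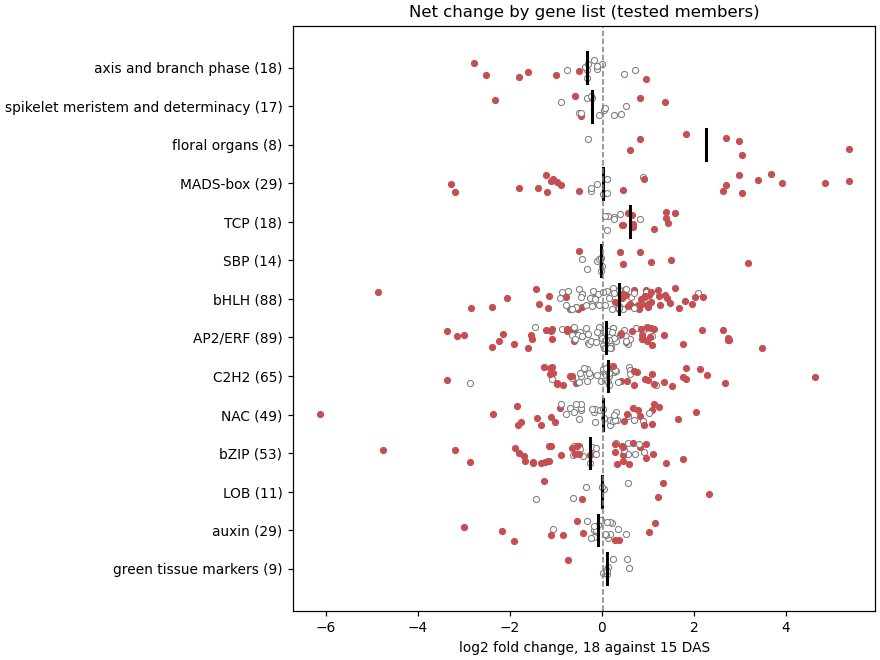
Log2 fold change between 15 and 18 DAS (x axis) of each tested member of the gene lists (y axis, number tested in brackets), with filled points for genes called at an adjusted p under 0.05, open points for the rest, black bars for the medians and a dashed line for the median of all 21180 genes. The floral organ list has the highest median (2.25), TCP genes lie to the right (0.62) and MADS-box genes fall into a rising and a falling set.

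Other late rises included TFs and enzymes. A pair of B3 domain genes similar to Arabidopsis NGATHA, which directs style development there, rose. The NGA1-like gene (Sevir.9G566400) had 0.212, 0.732, 0.299 and 0.344 CPM at 15 DAS, 0.388, 0.404, 0.586 and 0.284 CPM at 16 DAS and 4.51, 4.40, 3.09 and 4.90 CPM at 18 DAS and lay behind midway, and the NGA2-like gene (Sevir.9G346500) rose from 0.0687 to 0.610 CPM to 1.58 to 2.98 CPM. A leucine-rich repeat gene (Sevir.1G239200), a peroxidase 39-like gene (Sevir.1G077600) and a family 3 glycosyl hydrolase (Sevir.1G329400) also rose after 16 DAS. The hydrolase had 7.95, 4.64, 4.72 and 9.69 CPM at 15 DAS, 3.49, 4.85, 4.18 and 3.05 CPM at 16 DAS and 34.8, 34.2, 13.3 and 33.0 CPM at 18 DAS, with the 16 DAS libraries below the lowest of 15 DAS except for replicate 2. The repeat gene and the peroxidase rose by 3.49 ± 0.46 and 3.19 ± 0.32 on the log2 scale.

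Of the cell wall and cuticle genes that could be listed from the annotated part of chromosome 1, expansins loosen the wall and lipid transfer and GDSL proteins contribute to the cuticle. Among 11 tested cuticle and lipid transfer genes 6 were higher and 1 lower (median log2 fold change 0.93), and among 10 tested wall loosening and pectin genes 3 were higher and 1 lower (median -0.15). The called shares were 63.6% and 40.0%, against 42.7% of all genes, and without replicates 1 and 2 of 15 DAS the counts were 5 higher and none lower, and 3 higher and 2 lower. A lipid transfer gene (Sevir.1G267400) had 64.4, 124, 34.0 and 23.4 CPM at 15 DAS, 94.9, 133, 65.7 and 56.6 CPM at 16 DAS and 301, 220.3, 189 and 223 CPM at 18 DAS, where replicates 1 and 2 of 15 DAS were higher than 3 and 4. Its log2 fold change was 1.94 ± 0.35, and 3.02 without replicates 1 and 2. An expansin B3-like gene (Sevir.1G253100) rose late, from 0.537 to 1.22 CPM to 2.04 to 8.25 CPM, and a GDSL lipase (Sevir.1G001100) from 5.08 to 8.06 CPM to 15.9 to 19.5 CPM.

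The cell division, ribosomal protein, sugar and heat shock lists that follow were likewise drawn from chromosome 1 only. In the cell division list, 3 of 12 tested genes were higher and 4 lower, against 22.1% and 20.6% of all genes, and the counts were the same without replicates 1 and 2 of 15 DAS. A histone H3 gene (Sevir.1G207500) rose late, from 7.95 to 10.5 CPM and 7.36 to 10.9 CPM to 24.0, 23.0, 16.7 and 24.3 CPM. A second H3 gene (Sevir.1G138900) had at most 3 counts in every 15 DAS library and was at least 4.42-fold higher at 18 DAS, where it reached 0.528 to 1.63 CPM. A homolog of the MYB3R4 regulator of mitotic genes (Sevir.1G007200) fell, from 24.9 to 32.2 CPM to 14.8 to 16.4 CPM. Of 8 ribosomal protein genes, 1 was called (higher), against 42.7% of all genes. With library-size scaling none of the 8 was higher, and without replicates 1 and 2 of 15 DAS 4 were. Of 9 tested green tissue markers, 1 was called (lower). Of 7 sugar transport and cleavage genes none was higher and 2 were lower, of 7 heat shock genes 2 were higher and 1 lower (6 higher and 1 lower without replicates 1 and 2 of 15 DAS), and of 11 hormone related genes of chromosome 1, 3 were higher and 2 lower. For the green tissue, sugar and hormone lists that omission changed no count. The histone genes are near-identical to others of their family, and the division of reads between them is uncertain.

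The genes without annotation that rose most were Sevir.5G007000, from 0.0597 to 0.424 CPM to 4.60 to 9.66 CPM, and Sevir.3G368600, from 0.106 to 0.976 CPM to 2.19 to 7.87 CPM. Those that fell most were Sevir.5G252100 and Sevir.5G252000. The former had 6.25, 28.9, 5.97 and 3.37 CPM at 15 DAS, then 5.13 to 17.9 CPM at 16 DAS and 0 to 0.501 CPM at 18 DAS, and the latter 3.07, 18.2, 2.39 and 2.68 CPM, 3.15 to 8.47 CPM and 0 to 0.286 CPM. Both stayed up at 16 DAS, and replicate 2 of 15 DAS was the highest of its stage in each.

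Among the strong falls, replicates 4 and 2 of 15 DAS were often the ends of the range. Among the 1429 genes that fell over 2-fold, replicate 4 of 15 DAS was the highest of its stage for 781 (54.7%) and replicate 2 the lowest for 800 (56.0%), against 30.4% and 31.2% of all tested genes. For the 92 of them that lay ahead of midway these shares were 79.3% and 75.0%, and the 15 and 18 DAS libraries failed to overlap for 43.5%. For the 95 behind midway the shares were 22.1% and 30.5%, and the libraries did not overlap for 90.5%. The median coefficient of variation at 15 DAS was 56.7% for those ahead, 25.2% for those behind and 17.2% over all tested genes. At 18 DAS it was 21.9%, 25.4% and 12.1%. The part of the shallow replicate 2 in these falls was not tested.

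A bZIP9-like factor (Sevir.4G155800) had 156, 13.1, 384 and 567 CPM at 15 DAS, 10.3, 6.15, 35.6 and 59.1 CPM at 16 DAS and 10.6, 13.5, 8.30 and 8.94 CPM at 18 DAS. Replicate 2 of 15 DAS was as low as the 18 DAS libraries, and the other 3 were above all of these. The log2 fold change was -4.76 ± 0.72, or -5.52 without replicates 1 and 2 of 15 DAS. A NAC67-like factor (Sevir.9G038400), similar to Arabidopsis ATAF2, had 10.8, 0.244, 15.2 and 66.2 CPM at 15 DAS, then 0.243 to 1.63 CPM at 16 DAS and 0.0715 to 0.710 CPM at 18 DAS.

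The same order of the 15 DAS libraries was seen in a GBF3-like bZIP factor (Sevir.3G143000), with 46.7, 6.35, 81.8 and 178 CPM, and in a bZIP63-like factor (Sevir.3G396500), with 129.6, 13.9, 265 and 448 CPM at 15 DAS and 6.22, 55.0, 19.6 and 35.9 CPM at 18 DAS. A NAC25-like gene (Sevir.7G317200), whose Arabidopsis homolog NAP promotes leaf senescence, fell by 2.38 ± 0.65, with overlapping libraries. These genes could not be told apart from midway.

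Other large falls with no overlap between the stages were those of a late embryogenesis abundant protein (Sevir.6G133200), of a class that accumulates in maturing seeds and dry tissue, a carotenoid cleavage dioxygenase (Sevir.2G180600), a sulfurtransferase 18-like gene (Sevir.1G001800), a gene similar to tRNA pseudouridine synthases (Sevir.1G157800), an ERF003-like factor (Sevir.1G358600) and a PRR37-like pseudo-response regulator of the circadian clock (Sevir.2G456400). The first had 5.30, 0.732, 8.36 and 12.2 CPM at 15 DAS and 0.151 to 0.426 CPM at 18 DAS. The synthase-like gene had 77.8, 53.7, 115 and 156 CPM at 15 DAS and 23.2 to 28.8 CPM at 18 DAS, and the ERF003-like gene 5.51, 2.08, 6.63 and 5.91 CPM and 0.358, 1.81, 1.66 and 1.63 CPM. The clock gene had 63.7, 43.2, 105 and 167 CPM at 15 DAS, then 31.0 to 45.3 CPM at 16 DAS and 20.1 to 28.3 CPM at 18 DAS. In all of these genes replicate 2 was the lowest library of 15 DAS, although it still lay above those of 18 DAS.

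**Figure D5:**
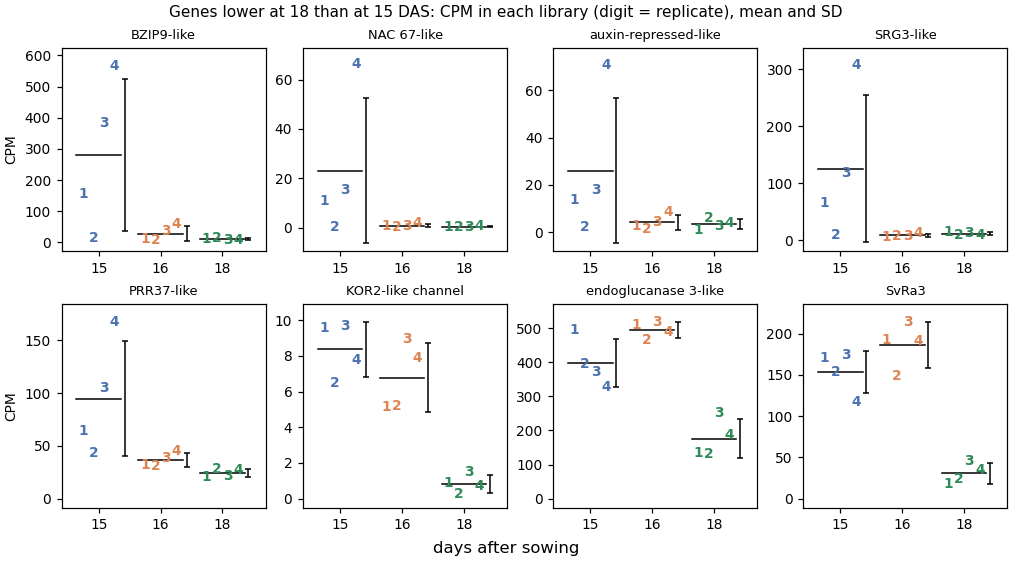
CPM of 8 genes that fell between 15 and 18 DAS (y axes), in the libraries of 15, 16 and 18 DAS (x axis), where each digit is the replicate of that number, the horizontal bar the mean and the vertical bar the SD (n = 4). In the upper row and the PRR37-like gene, replicate 2 is the lowest and replicate 4 the highest library of 15 DAS, whereas the KOR2-like channel, the endoglucanase and SvRa3 stay up at 16 DAS and drop by 18 DAS in all libraries.

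Falls that came after 16 DAS included genes of the cell wall and of transport. An endoglucanase 3-like gene (Sevir.5G021000), of a family that acts on wall glucans, had 494, 396, 372 and 326 CPM at 15 DAS, 509, 466, 517 and 487 CPM at 16 DAS and 134, 131, 251 and 188 CPM at 18 DAS. It lay behind midway with an adjusted p of 9.45e-05 (edgeR). A KOR2-like outward potassium channel (Sevir.7G119700) had 9.54, 6.47, 9.67 and 7.76 CPM, 5.11, 5.18, 8.94 and 7.88 CPM and 0.858, 0.241, 1.51 and 0.710 CPM at the 3 stages, a net log2 change of -3.37 ± 0.37. A bHLH47-like gene (Sevir.9G389000), homolog of the Arabidopsis iron response factor POPEYE, fell from 8.54 to 13.9 CPM and 11.3 to 13.3 CPM to 4.34 to 5.32 CPM, and an oligopeptide transporter (Sevir.1G287900) from 20.8 to 27.8 CPM and 27.3 to 36.4 CPM to 5.29 to 16.2 CPM. Among the 21 candidate TFs that the study picked from these samples, 8 were higher and 6 lower (8 and 5 without replicates 1 and 2 of 15 DAS), and an ABI5-like bZIP factor (Sevir.9G425100) fell after 16 DAS, with a log2 fold change of -1.11 ± 0.19.

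Falls ahead of midway included a few with close replicates. A gene of the ribosomal protein L2 family (Sevir.5G193700) had 22.7, 23.4, 28.3 and 27.2 CPM at 15 DAS, 11.1, 11.4, 11.0 and 14.1 CPM at 16 DAS and 11.2, 12.5, 12.1 and 14.1 CPM at 18 DAS. The levels of 16 and 18 DAS overlapped, and all were below 15 DAS (log2 fold change -1.03 ± 0.14). A gene of a transmembrane receptor family (Sevir.2G398600) had 18.7, 12.5, 14.7 and 15.7 CPM, 3.30, 3.88, 3.89 and 4.40 CPM and 1.43, 2.47, 2.72 and 4.12 CPM, and a TGA9-like bZIP factor (Sevir.3G229900) had 8.80, 6.23, 4.54 and 6.60 CPM, 2.58, 1.46, 1.61 and 0.852 CPM and 1.65, 2.47, 0.830 and 1.92 CPM. By contrast, the glycerophosphodiester phosphodiesterase annotated as senescence-related gene 3 (Sevir.1G174600) had 65.7, 9.64, 119 and 306 CPM at 15 DAS and 9.30 to 14.7 CPM at 18 DAS, and an SDIR1-like ubiquitin ligase (Sevir.6G029200) 14.5, 1.34, 30.6 and 62.7 CPM and 1.72 to 3.62 CPM. In both, replicate 2 of 15 DAS was within or below the range of 18 DAS.

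Rises ahead of midway were rare among annotated genes over 2-fold, and only 2 met the rule for naming. A GH3 gene (Sevir.3G193600), whose product joins auxin to amino acids, had 114, 106, 57.8 and 63.7 CPM at 15 DAS, 202, 180.1, 206 and 157 CPM at 16 DAS and 188, 159, 205 and 206 CPM at 18 DAS. Its 16 and 18 DAS libraries overlapped, and both lay above all of 15 DAS. A B3 domain gene (Sevir.7G309900) had 5.77 to 15.4 CPM, 14.9 to 23.9 CPM and 18.0 to 22.2 CPM and was ahead of midway in 10 of 20 alternative settings. Its net log2 fold change was 1.12 ± 0.23, and 1.78 without replicates 1 and 2 of 15 DAS.

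Of 30 auxin genes that the study listed from its middle groups of clusters, 29 were tested, and 4 were higher and 7 lower, a called share of 37.9% that is near the background of 42.7%, with a median log2 fold change of -0.08. Leaving out replicates 1 and 2 of 15 DAS, 8 were higher and 7 lower. The members that fell over 2-fold were the 4 auxin-repressed (dormancy-associated) genes. One of them, Sevir.9G187300, had 553, 65.3, 872 and 1482 CPM at 15 DAS and 52.4, 264, 156 and 191 CPM at 18 DAS, with replicate 2 of 15 DAS in the range of 18 DAS. Sevir.5G112300 and Sevir.6G176400 also fell, with log2 fold changes of -3.01 ± 0.68 and -1.90 ± 0.38, and the same replicate was the lowest. In all 4 auxin-repressed genes the libraries of 15 and 18 DAS overlapped. No auxin transport gene was higher and 1 was lower, of 6.

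A further 12140 tested genes were not called between 15 and 18 DAS. Of these, 1902 (15.7%) lay above the midpoint at 16 DAS and 1398 (11.5%) below it.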

How the data were processed

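The authors quantified reads with Salmon 0.8.1 on the primary transcripts of S. viridis and deposited expected counts (estimated counts per gene, not normalized) for 35214 genes in 23 libraries. These were rounded to whole counts, since 8.77% of the values had a fraction. The table gives no transcript lengths, so CPM is not compared between genes, and no depth beyond the summed counts is known.

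Counts were analysed with edgeR 4.0.16 in R 4.3.3 (TMM scaling, filterByExpr by stage, a mean for each stage in a fit of all 23 libraries, quasi-likelihood F-test, 2-sided, Benjamini-Hochberg adjustment over 21180 genes). The contrasts were 18 minus 15 DAS and 16 DAS minus the mean of both. Standard errors are the log2 fold change divided by the root of F. Levels are means or single libraries in CPM. A bound sets each library of the lower group to 3 counts. Alternatives were library-size scaling, DESeq2 size factors, the DESeq2 1.42.0 Wald test, other filters, fewer libraries, and a replicate block. In a simulation of this comparison with 198 of 20717 genes changed 2-fold, edgeR recovered 79.3% with 3.68% false calls, placed 39.4% of the late and 46.5% of the early genes in their class, and assigned none to the wrong side of midway. It gave each gene the same spread at all stages and set 16 DAS of changed genes at the level of 15 or 18 DAS. No simulated library was shifted as replicate 2 of 15 DAS was. The simulation therefore cannot tell how many genes of these data were put on the wrong side.

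Same-numbered libraries of 15 and 18 DAS did not deviate together (r from -0.418 to 0.0824). Those of 15 and 16 DAS had positive values, with r of 0.137, 0.649, 0.248 and 0.525 for replicates 1 to 4. What links them is not given by the labels. The main fit did not pair libraries by number, and a replicate block was among the alternative settings. Replicate pairs within a stage differed beyond sampling noise (chi-square per degree of freedom from 3.54 to 42.4). The members and gene lists were chosen with earlier results of these data known. Names and roles come from the study's tables, which annotate 2091 of the tested genes. Genes were named from these sets, not all of them in full: members of the developmental and MADS-box lists, the 10 annotated genes with the largest rise and fall (mean of at least 5 CPM, stages not overlapping), up to 3 members in each direction of each other list, up to 5 annotated genes in each early or late class, and 2 unannotated genes in each direction. The supplementary tables of gene annotation were used for names and list membership only. SvTaw1-like 1 was not analysed here, because no complete gene identifier could be read for it.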

Additional observations from a re-analysis of the deposited data

Results flagged for a closer look

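Among 306 groups of 4 libraries (102 named genes at 3 stages), 14 held a library far from the other 3 by Dixon's criterion at the 95% level, which chance gives in about 1 of 20 groups.

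At 15 DAS, replicate 2 was far from the rest in 4 genes. SvDfl1 was at 38.6 CPM there, against 61.8 to 64.8 CPM in the other replicates. The unannotated genes Sevir.5G252100 and Sevir.5G252000 were at 28.9 and 18.2 CPM, against at most 6.25 and 3.07 CPM, and Sevir.3G368600 at 0.976 CPM against at most 0.206 CPM. Without replicates 1 and 2 of 15 DAS their log2 fold changes were -1.97, -4.57, -4.12 and 4.86. SvSi1 was at 1.37 CPM in replicate 4 of 15 DAS and at no more than 0.299 CPM in the others.

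At 16 DAS, replicate 4 stood apart in 4 genes. It had 8.17 CPM of SvTaw1 against 12.8 to 13.6 CPM, and 14.1 CPM of Sevir.5G193700 against 11.0 to 11.4 CPM. The NAC67-like gene Sevir.9G038400 was at 1.63 CPM there, against 0.243 to 0.452 CPM. The histone H3 gene Sevir.1G138900 was at 0.0710 CPM, which is 1 count, and at 0 in the other 3 libraries. The leucine-rich repeat gene Sevir.1G239200 was at 1.13 CPM in replicate 2 and at 0.355 to 0.452 CPM in the others.

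At 18 DAS, replicate 3 had 13.3 CPM of the glycosyl hydrolase Sevir.1G329400 against 33.0 to 34.8 CPM, and 16.7 CPM of the histone H3 gene Sevir.1G207500 against 23.0 to 24.3 CPM. The ERF003-like gene Sevir.1G358600 was at 0.358 CPM in replicate 1 and at 1.63 to 1.81 CPM in the others. SvRa2 was at 21.5 CPM in replicate 1 and at 26.9 to 27.5 CPM in the others.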

How the results depend on the processing

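The strong late rises kept their order (more behind than ahead of midway) in all 21 alternative settings, whereas the number of genes in the ahead classes moved with many of them. With library-size scaling, 227 genes called higher lay ahead of midway, 6 of them over 2-fold, and without a filter on low counts 284 did. With at least 10 counts in every late library, 588 genes rose and 804 fell over 2-fold, 308 and 63 of them behind midway, and 7 rising genes ahead. In a fit of the 12 single-end libraries, 7 genes that rose over 2-fold lay ahead. With the replicate block added to that fit 7970 genes were called (3910 higher, 4060 lower), and 259 genes called higher, 7 of them over 2-fold, lay ahead. Without replicates 1 and 2 of 15 DAS, 1194 genes called higher (130 over 2-fold) and 950 called lower (421 over 2-fold) lay ahead. In a fit of the 8 libraries of 15 and 18 DAS alone 3111 genes were called higher. With position by days, 719 genes called higher (231 over 2-fold) and 280 called lower (41 over 2-fold) lay behind, and 23 genes that rose over 2-fold and 842 called lower (263 over 2-fold) ahead. The causes of these shifts were not tested. The DESeq2 Wald test called 8995 genes.

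Leaving out 1 replicate at a time gave 7777 to 9504 called genes, 3993 to 4879 higher and 3668 to 4625 lower, with 951 to 1278 rises and 1105 to 1574 falls over 2-fold. Behind midway lay 916 to 1357 genes called higher and 374 to 548 called lower, or 358 to 572 and 67 to 123 of those over 2-fold. Ahead of midway lay 279 to 634 and 235 to 708, or 4 to 26 and 50 to 268 of those over 2-fold. The highest counts ahead of midway were all reached without replicate 2 of 15 DAS, and the lowest without replicate 3 of 15 DAS or replicate 1 of 16 DAS. Replicates 1 and 2 of 15 DAS had the lowest counts, which limits the low genes most. Over the 83 named genes that were called, 1695 of 1714 alternative values kept the direction and the call, 19 kept the direction only and 0 reversed.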

Other observations

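Of the 43 developmental genes, 24 were not called between 15 and 18 DAS. Of these, 9 lay above the midpoint at 16 DAS and none below it, against 15.7% and 11.5% of all genes not called. SvLg1 (Sevir.3G023500), ortholog of maize liguleless 1 and a gene of organ boundaries, had 17.2, 15.1, 11.4 and 15.0 CPM at 15 DAS, 29.5, 32.8, 31.7 and 27.4 CPM at 16 DAS and 13.3, 13.7, 15.1 and 12.2 CPM at 18 DAS, so that all libraries of 16 DAS lay above the rest. SvRa2 had 23.4 to 29.5 CPM, 32.6 to 36.5 CPM and 21.5 to 27.5 CPM at the 3 stages, and SvBaf1 2.33 to 5.74 CPM, 7.81 to 10.6 CPM and 3.31 to 7.09 CPM. SvPla1, a plastochron gene, had 193, 186, 109 and 123 CPM at 15 DAS, then 190.1 to 286 CPM at 16 DAS and 81.3 to 162 CPM at 18 DAS, and the maize branching gene homolog SvTb1 26.6 to 38.2 CPM, 39.3 to 55.1 CPM and 24.9 to 43.2 CPM. The chromatin remodeling gene SvBrm followed the same course, with 214 to 276 CPM, 322 to 371 CPM and 208 to 248 CPM. SvRa2 kept its place above the midpoint in 15 and SvTb1 in 16 of 20 alternative settings, and SvLg1, SvBaf1, SvPla1 and SvBrm in all 20. Without replicates 1 and 2 of 15 DAS the midpoint test gave SvTb1 an adjusted p of 0.0513 (edgeR).

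The green tissue markers took the opposite course. Of 9 tested markers, 8 were not called between 15 and 18 DAS, and 5 of these lay below the midpoint at 16 DAS and none above it, against 11.5% and 15.7% of all genes not called. PSB27 (Sevir.9G418400) had 20.8, 13.2, 23.3 and 31.9 CPM at 15 DAS, 4.72, 6.88, 7.99 and 6.61 CPM at 16 DAS and 22.7, 28.7, 15.0 and 30.2 CPM at 18 DAS. Their part in the position of other genes was not tested.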
